A study of Mus musculus with 6 samples.

Results

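The HSP70 family was followed here through 10 genes, Hspa8, Hspa1a, Hspa1b, Hspa5, Hspa9, Hspa4, Hspa2, Hspa13, Hspa14 and Hsph1, taken by symbol from the 54532 genes of the count table. RNA was sequenced from L929 cells, a mouse fibroblast line that is a standard model of cell death induced by tumour necrosis factor. One group held 3 libraries titled TNF-α. By the treatment text these cells were given TNF-α at 10 ng/ml together with actinomycin D at 1 µg/ml for 12 hours. The other group held 3 libraries of the same line titled Control. The treatment text is the same for both groups, so groups were taken from the titles. What the Control cells received is not stated. Both groups carry the genotype label WT. Actinomycin D binds DNA and blocks RNA polymerases. No group was described as given either agent alone, so the effects of the agents cannot be told apart. The labels do not say whether separate cultures were used, and p-values therefore reflect variation among these libraries that may be technical.

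HSP70 proteins are chaperones that bind short hydrophobic stretches of unfolded proteins and release them in a cycle driven by ATP. J-domain proteins (the DNAJ family) deliver clients and stimulate ATP hydrolysis, and nucleotide exchange factors such as the BAG proteins and the HSP110 group reopen the chaperone. Each compartment has its own member: Hspa8 (HSC70) is the constitutive protein of the cytosol and nucleus, Hspa1a and Hspa1b encode the inducible cytosolic HSP70, Hspa5 encodes BiP of the endoplasmic reticulum (ER), and Hspa9 encodes mortalin of the mitochondrial matrix. Heat shock factor 1 (HSF1) drives the inducible genes through heat shock elements, and ER stress drives Hspa5 through ER stress elements. Cytosolic HSP70 is also known to restrain apoptosis in stressed cells.

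The promoters of Hspa1b, Hspa5 and Hsph1 are shown because they hold the elements by which the inducible members are known. Each window runs from 250 bases before to 50 bases after the RefSeq start site (build GRCm38.p6), and capitals mark heat shock elements (GAANNTTC or TTCNNGAA) or the ER stress element (CCAAT and CCACG with any 9 bases between them). The Hspa1b window is chr17:34959189-34959488, minus strand. The Hspa5 window is chr2:34771840-34772139, plus strand. The Hsph1 window is chr5:149636287-149636586, minus strand.
Hspa1b: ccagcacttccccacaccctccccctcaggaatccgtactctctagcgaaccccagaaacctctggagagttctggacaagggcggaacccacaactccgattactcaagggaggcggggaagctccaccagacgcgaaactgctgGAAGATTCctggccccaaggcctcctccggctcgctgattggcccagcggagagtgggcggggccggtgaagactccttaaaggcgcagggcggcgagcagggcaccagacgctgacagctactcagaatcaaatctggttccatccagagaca
Hspa5: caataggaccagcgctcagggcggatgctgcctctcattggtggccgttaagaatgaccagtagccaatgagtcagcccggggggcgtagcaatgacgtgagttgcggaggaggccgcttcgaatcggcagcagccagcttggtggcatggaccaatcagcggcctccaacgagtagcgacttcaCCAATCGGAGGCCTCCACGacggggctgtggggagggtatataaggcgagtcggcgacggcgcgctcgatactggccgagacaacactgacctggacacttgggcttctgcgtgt
Hsph1: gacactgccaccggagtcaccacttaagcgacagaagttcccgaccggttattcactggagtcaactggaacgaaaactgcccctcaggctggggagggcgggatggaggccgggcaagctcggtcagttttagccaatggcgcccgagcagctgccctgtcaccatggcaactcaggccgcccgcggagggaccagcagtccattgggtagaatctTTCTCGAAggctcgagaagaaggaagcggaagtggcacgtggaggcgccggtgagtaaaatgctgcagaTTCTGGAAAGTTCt
Hspa1b had 1 GAANNTTC match, which began at −104 relative to the start site. Hsph1 had 2 TTCNNGAA matches, at −33 and +37, and 1 GAANNTTC match at +42 that overlaps the second of them. RefSeq has a second Hsph1 start site, relative to which the same matches lie at −54, +16 and +21. Hspa5 had 1 ER stress element at −65 and a TATAA match at −26. Among 32851 promoter windows of the same table, 7.86% held GAANNTTC, 8.52% held TTCNNGAA and 0.119% held the ER stress element, each searched on both strands. The Hspa1a window was 98.7% identical to that of Hspa1b. From Hspa1b to Hspa1a, counted from 1 at the 5′ end of the window, they differed by T44C, C47T, G249T and T276C, none of them inside the heat shock element. The windows of Hspa4, Hspa2 and Hspa14 held no match to these 3 elements. Such letters are a description of the window and not evidence of binding. No entry was used for Hspa8, Hspa9 or Hspa13.

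Library totals ran from 16448477 to 17705511 counts in treated libraries and from 16056207 to 18036322 in Control libraries. Treated libraries had a count for 15705, 17688 and 18849 genes in replicates 1, 2 and 3, against 19219 to 20116 in Control libraries. Fibroblast markers summed to 20400 to 23800 CPM in treated libraries, against 6320 to 8180 CPM in Control libraries, although Pdgfrb went the other way, with means of 39.7 CPM in treated and 75.7 CPM in Control libraries, and Thy1 had 0 counts in treated libraries, against 0, 2 and 4 in Control libraries. Macrophage markers summed to 30.2 to 48.4 CPM and 5.31 to 7.78 CPM in the same order, with the pan-leukocyte gene Ptprc and the macrophage gene Adgre1 at 0 in treated libraries and at 1 count each over the Control ones. CPM here means counts brought to a common library size with TMM (trimmed mean of M-values) factors. The scaling matters in these data. Library size alone shifted the median log2 change of all tested genes by −1.04, median-ratio factors by 0.12 and holding cytosolic ribosomal protein genes equal by −2.38. RNA per cell was not measured, and in bulk RNA fewer cells and less RNA per cell cannot be told apart, so every change below is relative to the TMM scale.

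The family as a whole took a smaller part of the treated transcriptome, and its mix moved away from Hspa8. The 10 genes held 0.236%, 0.267% and 0.322% of all counts in treated libraries, against 0.872%, 0.924% and 0.918% in Control libraries. The groups did not overlap, and the ratio of their means was 0.304 (exact two-sided permutation p = 0.1, the smallest that 3 against 3 allow). Most genes also fell on this measure, since the median log2 change of all tested genes was −1.21 by library size alone. The fall in share is thus in large part not particular to the family. Per kilobase of gene length and on the TMM scale, the family summed to 943 ± 49.7 CPM per kb in treated cells and 1474 ± 52.8 CPM per kb in Control cells (SD, n = 3 each). Of that sum Hspa8 made up 1.71% ± 0.38 in treated cells and 22.2% ± 1.5 in Control cells. Hspa9 made up 36.7% ± 2.2 in treated cells and 13.7% ± 0.34 in Control cells. Hspa5 was the largest part in both, at 57.4% ± 2.2 in treated and 58.8% ± 0.99 in Control cells. The size of each part depends on the deposited gene length, and parts by transcript length were not computed.

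**Figure D1:**
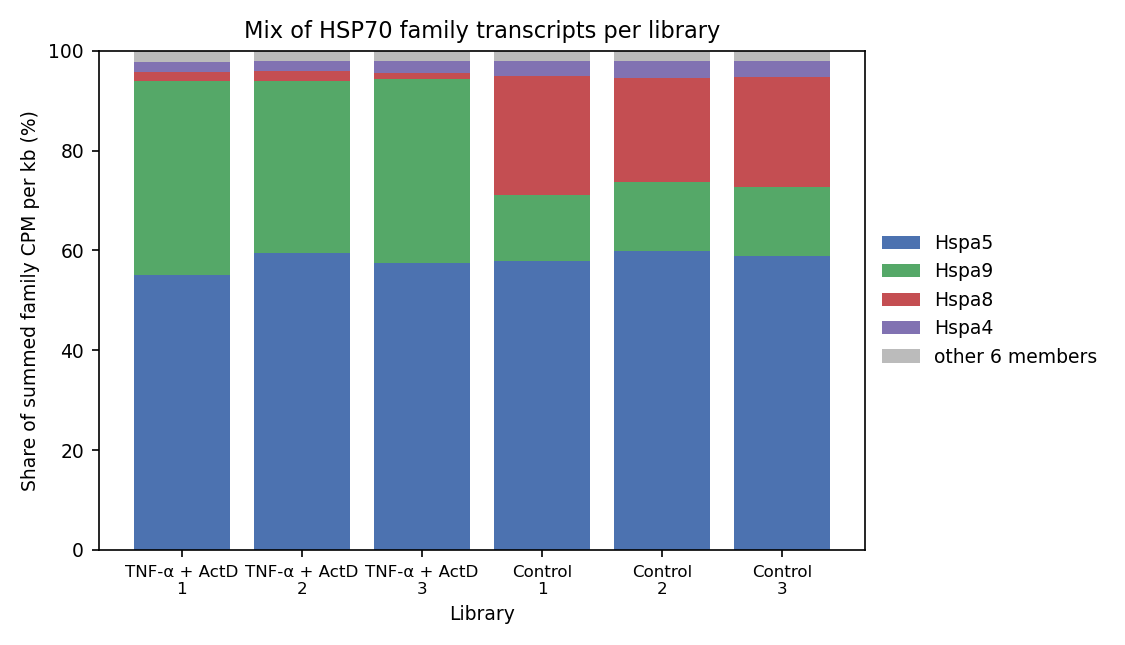
Share (%) of the summed CPM per kb of the 10 HSP70 genes in each library, treated libraries left of Control libraries, stacked by gene, with the 6 genes of lowest share pooled. Hspa8 makes up 1.27% to 1.93% in treated libraries and 20.8% to 23.8% in Control libraries, while the Hspa5 part is similar in all 6.

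Ranked by level per kb, treated cells had Hspa5 first (542 ± 47.5 CPM per kb) and Hspa9 second (345 ± 12.0), followed by Hspa4 (20.01 ± 2.0) and Hspa8 (16.1 ± 3.4), whose ranges overlapped. Hspa14 followed at 10.3 ± 2.0, and Hsph1 (3.61 ± 0.55), Hspa13 (3.39 ± 0.90) and Hspa1b (2.55 ± 1.44) came next, each overlapping its neighbour (SD, n = 3 libraries). Control cells had Hspa5 first (867 ± 17.01 CPM per kb), then Hspa8 (328 ± 33.6), Hspa9 (201 ± 3.1), Hspa4 (48.1 ± 0.36), Hspa14 (13.3 ± 0.68), Hsph1 (9.68 ± 0.33), Hspa13 (5.57 ± 0.92), Hspa1b (1.13 ± 0.10), Hspa2 (0.41 ± 0.11) and Hspa1a (0.023 ± 0.021). No neighbouring ranges overlapped in Control cells, where Hspa8 held rank 2. In treated cells Hspa8 held rank 4 by its mean, with a range that overlapped that of Hspa4. These levels divide by the deposited gene length, which for Hspa8 is 4301 bases, against 2394 for its main annotated transcript. For Hspa4 these lengths are 5528 and 4618 bases. Levels by transcript length were not computed, so the order of Hspa4 and Hspa8 in treated cells is not settled.

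**Figure D2:**
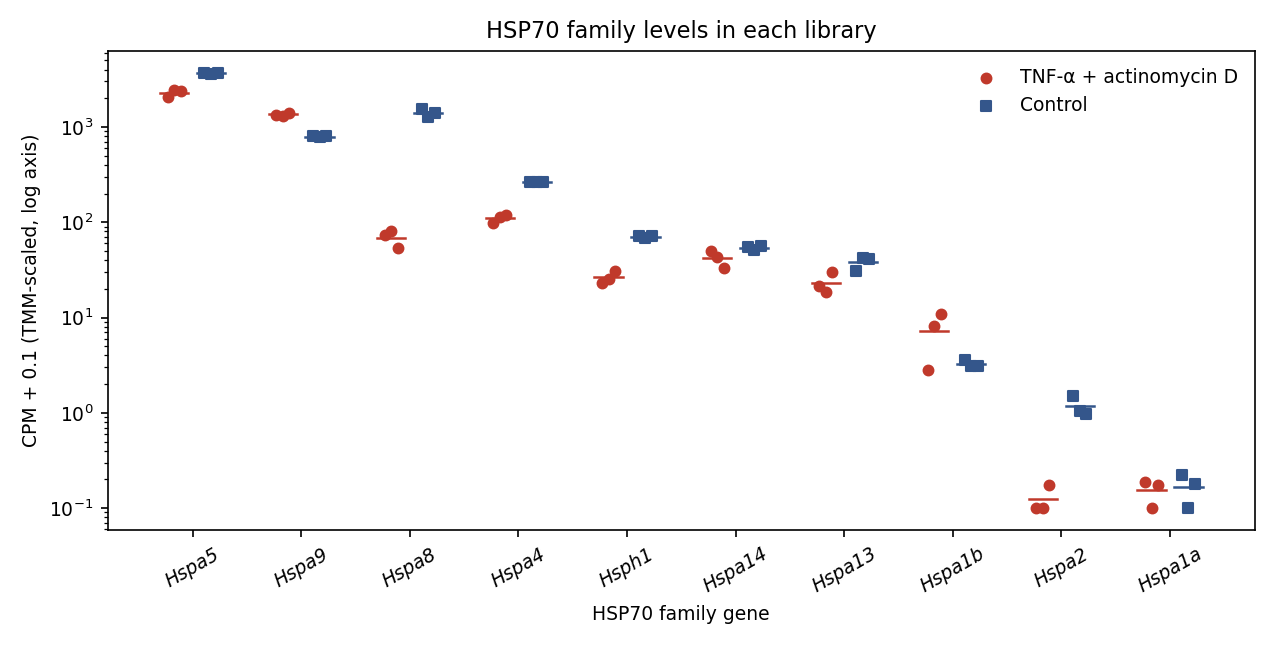
TMM-scaled CPM + 0.1 on a log axis for each HSP70 gene, with treated libraries (red circles) left of Control libraries (blue squares) and a short line at each group mean. Groups do not overlap for 8 of the 9 tested genes; Hspa1b overlaps, and the untested Hspa1a lies at 0 to 0.124 CPM in all libraries.

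Of the 10 genes, 9 had enough counts to be tested across the transcriptome with edgeR's quasi-likelihood test and Benjamini-Hochberg adjustment over 13290 genes. At an adjusted p of 0.05, 2 were called higher in treated cells and 6 lower, and 1 was not called. The 6 include Hspa2, which passed the expression filter only through its Control counts and could only be called lower. The background was high, since 74.8% of all tested genes were called, 34.6% higher and 40.2% lower, and the groups did not overlap for 77.9% of them. The family's 88.9% called and 8 of 9 without overlap are near that background, and the count of calls is no result about the family. The median change of the tested members was −0.71 on the log2 scale, against −0.18 for all tested genes. The changes spread from −4.96 to 1.18. Apart from Hspa8 and Hspa2, the members lay well inside the range of all tested genes. The share of tested genes with a lower log2 change was 27.1% for Hsph1, 29.7% for Hspa4 and 39.8% for Hspa13. It was 40.3% for Hspa5, 46.5% for Hspa14, 67.9% for Hspa9 and 75.2% for Hspa1b.

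Hspa8, the constitutive chaperone of the cytosol that also uncoats clathrin vesicles, lies on chromosome 9 from 40800984 to 40810087. It had 73.3, 80.9 and 53.0 CPM in treated libraries, against 1558, 1269.7 and 1402 CPM in Control libraries. Every treated library lay far below every Control library. It fell by 4.35 ± 0.22 on the log2 scale (SE, adjusted p = 2.74e-07), a level 20.4-fold higher in Control cells. Only 158 of the tested genes (1.18%) had a lower log2 change. In a view chosen after its value was seen, 46 tested genes averaged at least 1000 CPM in Control cells, and none of the others fell as far; the next, the growth factor gene Csf1, changed by −1.49. Across the scalings the change of Hspa8 stayed between −6.77 and −4.22. Of its distinct 50-base words, 39.4% also occur in transcripts of 16 other annotated genes, so reads could be shared with copies. Those 16 genes held 5 counts over the treated libraries and 408 over the Control libraries, and with their counts added Hspa8 changed by −4.36.

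The inducible pair was low in both groups. Hspa1a and Hspa1b are genes of 1 exon each that lie near one another on chromosome 17, from 34969190 to 34972156 and from 34956436 to 34959238. Of the 50-base words of Hspa1b, 62.3% also occur in Hspa1a, so the split of reads between them is uncertain. Hspa1a had 1, 0 and 1 counts in treated libraries, against 3, 0 and 2 in Control libraries, and was not tested. Its ratio, treated over Control, was 0.827 with an exact 95% counting interval of 0.0788 to 5.05, so no difference was detectable at this depth. Hspa1b had 2.74, 8.04 and 10.7 CPM in treated libraries, against 3.48, 3.03 and 3.00 CPM in Control libraries. Treated replicate 1 lay below all Control libraries, and treated replicates 2 and 3 lay above them. Hspa1b rose by 1.18 ± 0.42 on the log2 scale (adjusted p = 0.0246), which turned to −1.098 with ribosomal protein genes held equal and to 0.19 (adjusted p = 0.741) by library size alone. The call was kept without treated replicate 1 (1.48) and lost without any other library: the changes were 1.01 without treated replicate 2 (adjusted p = 0.121), 0.73 without treated replicate 3 (adjusted p = 0.155), and 1.22, 1.11 and 1.10 without Control replicates 1, 2 and 3 (adjusted p = 0.058, 0.0715 and 0.0721). With the counts of Hspa1a, Hspa1l and the other genes that share 50-base words added, the change was 0.85 (adjusted p = 0.0465).

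Hspa2, a member enriched in testis and needed for male meiosis in mice, lies on chromosome 12 from 76404176 to 76406938 and was near the limit of detection. It had 0, 0 and 1 counts in treated libraries, against 34, 23 and 22 in Control libraries. All treated libraries lay below all Control libraries. The ratio of treated to Control was 0.0262, with an exact 95% counting interval of 0.000655 to 0.150 that covers counting error only. The fitted change of −4.96 ± 0.90 on the log2 scale (edgeR adjusted p = 0.000455) rests on 1 treated count, and without treated replicate 3 it went to −7.38. Hspa2 passed the expression filter only through its Control counts, so a fall was the only call open to it. That p-value is therefore no separate support for a fall. The stricter filter left the gene out.

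In the ER, Hspa5 fell by a smaller amount while keeping the first rank. Hspa5 (chromosome 2, 34771970 to 34777547) encodes BiP, which folds secreted proteins and holds the ER stress sensors inactive. It had 2067, 2453 and 2356 CPM in treated libraries, against 3726, 3587 and 3689 CPM in Control libraries. The groups were well separated, and the change was −0.68 ± 0.17 on the log2 scale (edgeR adjusted p = 0.0041). No 50-base word of it occurs in another annotated transcript. Hspa13 (chromosome 16, 75745431 to 75767104) encodes a microsome-associated HSP70 protein that keeps the ATPase core. It had 21.1, 18.3 and 30.1 CPM in treated libraries, against 30.8, 41.8 and 41.5 CPM in Control libraries. Treated replicate 3 came close to Control replicate 1, and the change of −0.71 ± 0.22 (edgeR adjusted p = 0.0129) was no longer called without treated replicate 2 (−0.66, adjusted p = 0.0534) or once the trend of change with gene length was removed (−0.14, adjusted p = 0.589). Its deposited gene length of 6834 bases is the second longest of the family, and the length trend at that size was −0.87.

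The mitochondrial member moved the other way on the TMM scale. Hspa9 encodes mortalin, which pulls proteins through the inner membrane and takes part in iron-sulfur cluster assembly, and lies on chromosome 18 from 34937414 to 34954357. It had 1348.5, 1317 and 1409.7 CPM in treated libraries, against 795, 777 and 801 CPM in Control libraries. The treated libraries lay above all Control libraries with little spread. It rose by 0.78 ± 0.15 on the log2 scale (edgeR adjusted p = 0.000798), a rise that turned to −0.26 (adjusted p = 0.104) by library size alone and to −1.60 (adjusted p = 0.000307) with ribosomal protein genes held equal. In raw counts it had 15272, 14893 and 18466 in treated libraries, against 19207, 19018 and 20261 in Control libraries.

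Hspa4 and Hsph1, HSP110 members that act as exchange factors for HSP70 and also hold unfolded proteins, both fell. Other HSP110 genes did not share a called fall. Hspa4l changed by −0.63 (edgeR adjusted p = 0.114) and Hyou1 of the ER by 0.35 (adjusted p = 0.0862). Hspa4 (chromosome 11, 53259814 to 53300457) had 98.3, 114 and 119.9 CPM in treated libraries, against 267, 266 and 264 CPM in Control libraries. Hsph1 (chromosome 5, 149614287 to 149636376), which is also a heat-inducible gene, had 22.7, 25.5 and 30.5 CPM in treated libraries, against 72.1, 67.6 and 71.4 CPM in Control libraries. Neither Hspa4 nor Hsph1 overlapped between groups, and both were highest among treated libraries in replicate 3. Hspa4 changed by −1.26 ± 0.14 (edgeR adjusted p = 1.39e-05) and Hsph1 by −1.42 ± 0.17 (adjusted p = 1.81e-05) on the log2 scale. The deposited gene length, which is not the span on the chromosome, is longest in the family for Hsph1, at 7266 bases. Once the length trend was removed the change of Hsph1 was −0.80, a call that was kept. Hspa4 then changed by −0.88 and also kept its call.

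Hspa14, whose product joins the J protein Dnajc2 (MPP11) at the ribosome, lies on chromosome 2 from 3488850 to 3512814. It had 49.6, 42.9 and 33.1 CPM in treated libraries, against 54.9, 50.7 and 55.9 CPM in Control libraries. Every treated library was below every Control library, but treated replicate 1 by little, and the change of −0.36 ± 0.18 on the log2 scale did not pass (edgeR adjusted p = 0.0882). It was called lower without treated replicate 1 (−0.58, adjusted p = 0.0133), with no expression filter (−0.52, adjusted p = 0.0217), by library size alone (−1.42) and when ribosomal protein genes were held equal (−2.79). The gene Gm45902 overlaps it on the same strand, shares 6.83% of its 50-base words and had 43 counts over treated libraries, against 337 over Control libraries. With those counts added, Hspa14 changed by −0.44 (adjusted p = 0.0411).

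**Figure D3:**
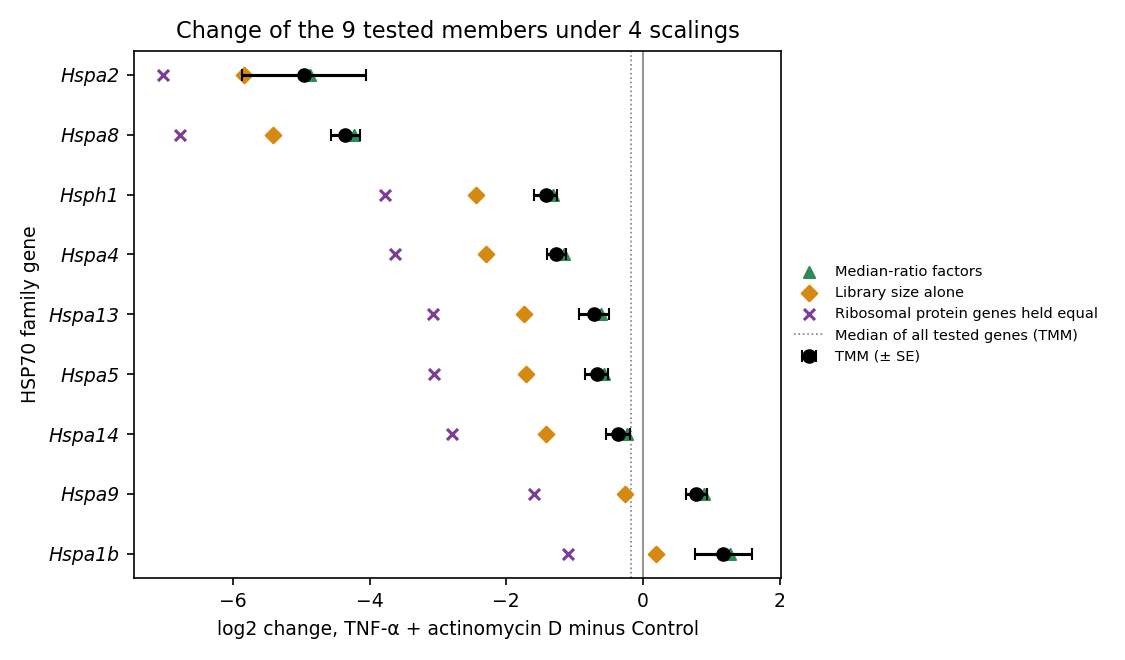
The log2 change (treated minus Control, x axis) of the 9 tested HSP70 genes under TMM (black circles with SE bars), median-ratio factors (green triangles), library size alone (orange diamonds) and ribosomal protein genes held equal (purple crosses), with a dotted line at the TMM median of all tested genes (−0.18). Hspa8 and Hspa2 lie furthest left under each scaling, and the order of the genes is the same under all 4 while the zero point moves.

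Ratios between members within a library do not depend on the scaling. The log2 ratio of Hspa5 to Hspa8 counts was 4.82, 4.92 and 5.47 in treated libraries, against 1.26, 1.498 and 1.40 in Control libraries. The log2 ratio of Hspa9 to Hspa8 was 4.20, 4.02 and 4.73 in treated libraries, against −0.97, −0.71 and −0.81 in Control libraries. Hspa8 thus had more counts than Hspa9 in every Control library and fewer in every treated one. The log2 ratio of summed Hspa1a and Hspa1b to Hspa8 was −4.70, −3.33 and −2.30 in treated libraries, against −8.76, −8.71 and −8.83 in Control libraries. The group means of the ratios differed by 3.69, 5.15 and 5.32 on the log2 scale, in the order Hspa5, Hspa9 and the inducible pair. Each of the 3 comparisons had an exact permutation p of 0.1, also after adjustment over the 3, which is the smallest p the design allows. All 3 ratios have Hspa8 as denominator, so they are not separate observations. Hspa8 itself changed by −4.35 on the TMM scale, and that fall enters each of them.

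**Figure D4:**
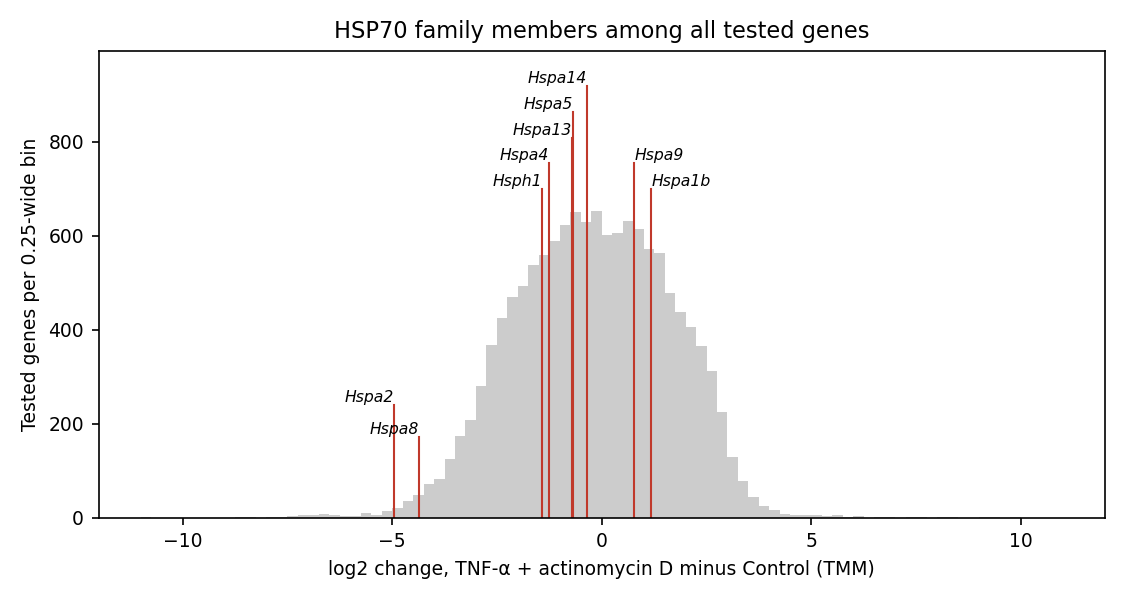
Number of tested genes per bin of log2 change (treated minus Control, TMM scale), with a red line at each tested HSP70 gene (line heights only separate the labels). Hspa8 and Hspa2 stand in the lower tail, Hspa2 on 1 treated count, and the other 7 lie between −1.42 and 1.18.

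The libraries within the treated group did not order the members alike. Hspa1b, Hspa4, Hsph1, Hspa13 and Hspa9 were highest in treated replicate 3, the treated library with most genes detected. Hspa8 and Hspa14 were lowest in that library. Among Control libraries the SD ran from 1.98 CPM about a mean of 266 CPM for Hspa4 to 145 CPM about 1410 CPM for Hspa8, and for Hspa13 it was 6.27 CPM about 38.0 CPM, close to the treated SD of 6.15 CPM.

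Co-chaperones of the cytosolic HSP70s held calls in both directions. Of 19 listed genes 18 were tested, and 8 were called higher and 7 lower, with a median log2 change of 0.39 against −0.18 for all tested genes. The 83.3% called compare with 74.8% of all tested genes, of which 34.6% were higher and 40.2% lower, so a division of this kind is near the background. By library size alone the counts were 3 higher and 9 lower, and with ribosomal protein genes held equal 0 higher and 17 lower. Dnaja2, a J protein of the cytosol that partners Hspa8, had 9.18, 6.98 and 8.09 CPM in treated libraries, against 135, 124 and 138 CPM in Control libraries, and fell by 4.03 ± 0.18. Its size was thereby close to that of Hspa8. Bag4, an exchange factor also known to bind TNF receptor 1, fell by 2.66 ± 0.37. Bag1, another exchange factor, averaged 793 ± 124 CPM in treated cells and 141 ± 18.4 CPM in Control cells (SD, n = 3 each) and rose by 2.49 ± 0.18, which was no longer called (0.088) when ribosomal protein genes were held equal. Dnajb2, a J protein that links clients to the ubiquitin system, rose by 1.88 ± 0.16 and turned to −0.50 with ribosomal protein genes held equal.

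BiP partners and ER folding genes held calls in both directions. All 22 were tested, and 10 were called higher and 5 lower, with a median log2 change of 0.41. The 68.2% called lie below the 74.8% of all tested genes. By library size alone the counts were 4 higher and 13 lower, and with ribosomal protein genes held equal 0 higher and 22 lower. Sil1, an exchange factor of BiP, rose by 1.75 ± 0.24, and Pdia6, a disulfide isomerase, rose by 1.64 ± 0.18, which turned to −0.68 and −0.76 with ribosomal protein genes held equal. Xbp1, a transcription factor of the unfolded protein response, averaged 16.8 ± 4.4 CPM in treated cells and 151 ± 20.9 CPM in Control cells (SD, n = 3 each) and fell by 3.16 ± 0.21. Herpud1, of ER-associated degradation, fell by 1.70 ± 0.17.

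Of 14 tested mitochondrial partners of Hspa9, 9 were called higher and 4 lower on the TMM scale, with a median log2 change of 1.13. The share called was 92.9%, against 74.8% of all tested genes (34.6% higher and 40.2% lower). By library size alone the counts were 4 higher and 5 lower, and with ribosomal protein genes held equal 0 higher and 12 lower. Iscu, the scaffold for iron-sulfur clusters, rose by 2.40 ± 0.19, and Dnajc19, a J protein of the import motor, rose by 2.26 ± 0.23, while ribosomal protein genes held equal gave −0.0052 and −0.17. Dnaja3, a J protein of the matrix, had 8.39, 9.46 and 7.94 CPM in treated libraries, against 63.9, 46.0 and 54.4 CPM in Control libraries, and fell by 2.67 ± 0.20. Grpel2, an exchange factor of mortalin, fell by 2.49 ± 0.27.

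Among heat shock factors and known HSF1 targets, 18 of 19 listed genes were tested, and 9 were called higher and 8 lower, with a median log2 change of 0.57. The share called was 94.4%, against 74.8% of all tested genes (34.6% higher and 40.2% lower). By library size alone the counts were 3 higher and 9 lower, and with ribosomal protein genes held equal 1 higher and 16 lower. Cryab, a small heat shock protein, had 31.1, 35.4 and 23.7 CPM in treated libraries, against 2.69, 1.84 and 2.13 CPM in Control libraries, and rose by 3.75 ± 0.26. Serpinh1, the collagen chaperone HSP47, rose by 1.78 ± 0.19 and turned to −0.60 with ribosomal protein genes held equal. Hsf2, a heat shock factor, had 11, 4 and 18 counts in treated libraries, against 294, 387 and 360 in Control libraries. It fell by 3.94 ± 0.38. Hsf2 passed the expression filter only through its Control counts, so its call is no separate support for a fall. Hsf1, named beyond the rule as the main regulator, had 90.9, 89.5 and 73.9 CPM in treated libraries, against 76.2, 56.8 and 69.7 CPM in Control libraries, and was not called (edgeR adjusted p = 0.0938). Some genes, such as Dnaja1, Bag3 and Stip1, stand in more than 1 of the lists.

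Removing the trend of change with gene length moved several of these named genes by over 1.5-fold while keeping their calls. The rises became 1.239 for Bag1, 0.73 for Sil1 (edgeR adjusted p = 0.0183), 1.62 for Iscu, 2.59 for Cryab and 1.13 for Serpinh1. The falls became −2.06 for Bag4, −2.40 for Herpud1 and −3.14 for Hsf2. Calls were lost for Hspa1b (0.71, edgeR adjusted p = 0.152), Hspa13 and Hspa12a. Mitochondrial partners then had 6 called higher and 4 lower, and heat shock factors and HSF1 targets 7 higher and 7 lower. Cytosolic co-chaperones had 8 higher and 7 lower, and BiP partners and ER folding genes 10 higher and 7 lower.

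**Figure D5:**
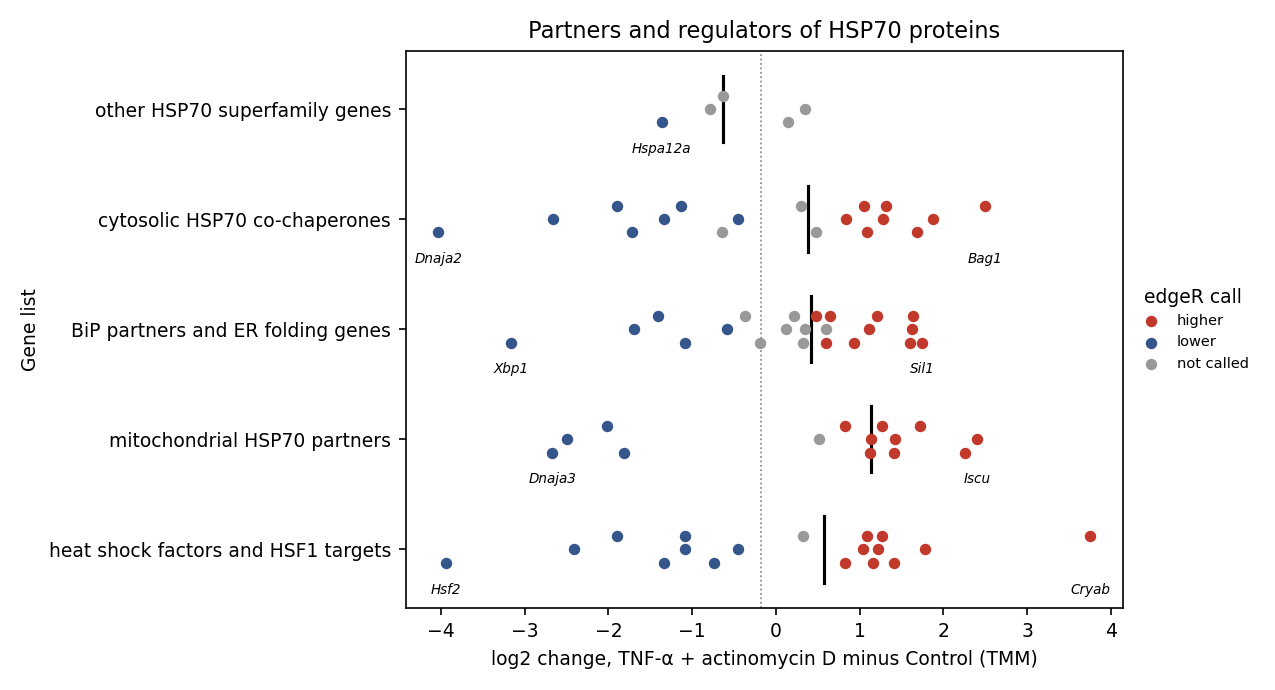
The log2 change (treated minus Control, TMM scale) of each tested gene in 5 lists of HSP70 relatives, partners and regulators, coloured by call and labelled at the largest called rise and fall, with a black bar at each list median and a dotted line at the median of all tested genes. Called genes lie on both sides in each list except the other HSP70 superfamily genes, where the call of Hspa12a is the only one. Hspa12a and Hsf2 passed the expression filter only through their Control counts.

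Of 5 other superfamily genes, all tested, 1 was called lower and 0 higher by edgeR, with 0 higher also at an unadjusted p under 0.05. DESeq2 called 1 higher and 0 lower, as did limma on log2(FPKM + 1) or log2(FPKM + 0.1). By edgeR 1 was also called higher with median-ratio factors, the stricter filter and the gene length offset, with or without a replicate block. The 20% called by edgeR compare with 74.8% of all tested genes, but the number called lower was 4 by library size alone and 5 when ribosomal protein genes were held equal. Hspa12a, a distant member, had 9, 3 and 11 counts in treated libraries, against 51, 34 and 37 in Control libraries. It passed the expression filter only through its Control counts, so its edgeR p-value is no separate support for a fall. Hspa12a averaged 0.633 ± 0.32 CPM in treated cells and 1.65 ± 0.40 CPM in Control cells (SD, n = 3 each). It fell by 1.36 ± 0.51 (edgeR adjusted p = 0.0295). That call was lost with DESeq2 (−1.27, adjusted p = 0.0553), with the gene length offset (−0.95, adjusted p = 0.117) or that offset and a replicate block (−1.01, adjusted p = 0.16), without treated replicate 2 (−1.08) and without Control replicate 1, 2 or 3 (−1.18, −1.505 and −1.48).

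The member with the highest level per kb was Hspa5, and the profiles most like its own were those of Fam76a, Ftsj3 and Aifm1. The root mean square differences from Hspa5 in centred log2 CPM over the 6 libraries were 0.0329, 0.0393 and 0.0473, the smallest among 9154 protein-coding genes with a mean of at least 5 CPM. Fam76a averaged 10.5 ± 0.92 CPM in treated cells and 16.7 ± 0.89 CPM in Control cells (SD, n = 3 each). With only 2 groups behind the 6 values, many genes share such a profile.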

How the data were processed

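RNA sequencing counts were analysed for 3 libraries of L929 cells given TNF-α with actinomycin D and 3 Control libraries. The deposited table holds whole-number counts per gene, and the authors' FPKM table holds those counts over gene length with a further factor per library. Gene length, a value of another type, is deposited in bases. Per the submitters' processing notes, the tools were DESeq2 1.24.0, HISAT2 2.1.0 and RSEM 1.3.1, and mm10 and GRCm38 the builds, with no role given. Rules for counting are not given in the sources used here. Shared, overlapping and antisense genes are therefore uncertain. Control columns carry the genotype name WT and were matched by number and by the treated columns being named for TNF. All 10 members had the same coordinates in GENCODE M21. Promoters were taken from RefSeq (GRCm38.p6), where 7 of the 10 members matched. Words of 50 bases were counted in GENCODE M21 transcripts on both strands.

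Genes passing filterByExpr (13290) were scaled by TMM and tested with edgeR 4.0.16 (robust glmQLFit, glmQLFTest) in R 4.3.3, with Benjamini-Hochberg adjustment over all tested genes. A standard error is the log2 change divided by the root of F. Shares and ratios were compared with exact permutation tests in Python 3.11.15 with scipy 1.17.1. Alternatives were other scalings and filters, DESeq2 1.42.0, limma 3.58.1 (voom, or log2 FPKM with a pseudocount of 1 or 0.1 where mean FPKM reached 1), a gene length offset (lowess span 0.3), a replicate block and leaving out each library. The fits were tested on simulated data in which few genes changed, equally often up and down. Most genes are called here, so that simulation does not test the choice of scaling. The members and lists were chosen with earlier results of these data known. Named list genes are up to 2 called rises and 2 called falls of largest size in each list with a mean of at least 1 CPM; 1 of them is not reported here. Intervals cover counting error only.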

Additional observations from a re-analysis of the deposited data

How the results depend on the processing

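Over the 9 tested members, 145 of the alternative values kept direction and side of the threshold, 14 kept only the direction and were no longer called, 5 were newly called and 3 changed sign. The number of members called was 6 to 9 over all alternatives, against 8. The number called higher, 2 on the TMM scale, was 0 by library size alone and 0 when ribosomal protein genes were held equal (edgeR, also 0 at an unadjusted p under 0.05; DESeq2 with its own factors gave 2), and 1 with the stricter filter, which left out Hspa1b, and with limma-voom, limma on log2(FPKM + 1) or log2(FPKM + 0.1), the gene length offset and that offset with a replicate block. Leaving out each library gave 1 to 2. Hspa9 became −0.26 by library size alone and −1.60 when ribosomal protein genes were held equal, where Hspa1b became −1.098, Dnajb2 −0.50, Sil1 −0.68, Pdia6 −0.76, Iscu −0.0052, Dnajc19 −0.17 and Serpinh1 −0.60; these reversals follow from the shift of the zero point. Without 1 library, the family share differed by −0.653 to −0.61 percentage points, and the log2 ratios to Hspa8 by 4.75 to 5.95 (inducible pair), 3.49 to 3.81 (Hspa5) and 4.94 to 5.30 (Hspa9). Samples share only a replicate number: deviations of same-numbered libraries correlated at 0.224, −0.144 and 0.030. With the replicate block 8 members and 9861 genes were called, against 9941. Hspa2 is limited by depth. Adding the counts of genes that share 50-base words was chosen after seeing the data.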

Other observations

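The snoRNA genes Snord14c, Snord14d and Snord14e lie in the Hspa8 gene on its strand and had 0 counts in all 6 libraries. The antisense gene Gm20481, which overlaps Hspa1a, also had 0 counts in all 6. The exchange factor pair of mortalin differed in call, with Grpel1 at a log2 change of 0.51 that did not pass (edgeR adjusted p = 0.0547) and Grpel2 called lower. The chaperonin genes Hspd1 and Hspe1 act beside Hspa9 in the matrix. They rose by 0.82 ± 0.15 and 1.42 ± 0.18 on the TMM scale (edgeR adjusted p = 0.000559 and 3.73e-05). Both were already counted among the mitochondrial partners, of which 0 were called higher with ribosomal protein genes held equal. Hyou1, the HSP110 relative of the ER, had 1165, 1217 and 1337 CPM in treated libraries, against 1117, 864 and 945 CPM in Control libraries, and was not called (adjusted p = 0.0862). These genes were picked after their values were seen.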
